A study of Mus musculus with 3 samples.

Results

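The cells described here are 82 myeloid cells from mouse brain that carried at least 2 of the transcripts of Pf4, Gpnmb and Ms4a7. They were taken from 1 deposited cluster (cluster 3, 404 cells) of a table of 4668 cells. A cell was a member where it had at least 1 unique molecular identifier (UMI, the tag that marks 1 captured mRNA molecule) for at least 2 of Pf4, Gpnmb and Ms4a7. It could have UMIs for at most 2 of 7 microglia genes (Tmem119, P2ry12, Cx3cr1, Fcrls, Gpr34, Siglech and Olfml3) and at most 1 of 5 T cell genes (Cd3d, Cd3e, Cd3g, Trac and Trbc2). These cells are called rule-defined macrophages below. Their RNA chose them, so every RNA value is a description with no test, and only the antibody tags, which are counted in a library of their own, were tested.

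The study set brains without tumors beside brains that bore metastases grown from E0771 cells (a mammary carcinoma line of the mouse). All mice were female C57BL/6 animals of 2 to 3 months, and the tumor cells had been given into the carotid artery about 2 weeks before. The labels name no transgene. Digested and gradient-enriched cells of each of 4 brains were stained with 6 antibodies and 1 hashtag antibody per brain, and were then pooled into 1 droplet run. The sources used here do not say which hashtags marked which condition, so each brain is named by its hashtag and no condition was compared. The pool gave 1 cDNA library, and its 4668 barcodes were all different.

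Macrophages of the brain have several origins. Microglia settle the tissue in the embryo, border-associated macrophages live in the meninges, the perivascular space and the choroid plexus, and monocytes enter from blood during inflammation and tumor growth and mature in place. Pf4 encodes platelet factor 4, a chemokine made by megakaryocytes and also by border macrophages. Ms4a7 encodes a membrane protein of macrophages that resting microglia lack, and Gpnmb encodes a lysosomal and surface glycoprotein of cells that take up lipid and debris. Lipid-associated macrophages are known for Gpnmb together with Spp1 (osteopontin, a secreted matrix protein), Apoe (the lipid carrier apolipoprotein E), Trem2 (a lipid-sensing receptor), Fabp5 (a fatty acid binding protein) and lysosomal proteases such as Ctsd.

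The tags for CD45, CD11b and CD86 (3 of the 6 tested), and the 2 hashtags that hold 80 of the members, are read through short designed oligos, 15 bases each, written 5′ to 3′ as the deposited tag table has them.
CD45 antibody: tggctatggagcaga
CD11b antibody: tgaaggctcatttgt
CD86 antibody: ctggatttgtgtatc
Hashtag 3: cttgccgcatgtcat
Hashtag 4: aaagcattcttcacg

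The 82 members were spread unevenly over the brains. The hashtag 1 brain gave 1 member among 21 cluster 3 cells, which is 4.76% with an exact binomial 95% interval of 0.120% to 23.8%. The hashtag 2 brain gave 1 among 34 (2.94%, 0.0744% to 15.3%). The hashtag 3 brain gave 29 among 155 (18.7%, 12.9% to 25.8%) and the hashtag 4 brain 51 among 194 (26.3%, 20.2% to 33.1%). The intervals cover counting error only. Those of the hashtag 3 and 4 brains overlap, that of hashtag 1 overlaps both of them, and that of hashtag 2 overlaps that of hashtag 3. The single members of the other brains were also the least certain by hashtag. The hashtag 1 member had 49.5% of its hashtag counts from its own hashtag and 42.5% from hashtag 4. The hashtag 2 member had 69.8% from its own and 23.5% from hashtag 3. Where a cell had to take 80% or more of its hashtag counts from 1 hashtag, neither of these brains had a member. All levels below are therefore from hashtags 3 and 4, in which 22 of 29 and 48 of 51 members passed that limit.

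Within the rule, the members were not alike. UMIs of all 3 genes were seen in 35 cells, of Pf4 and Ms4a7 in 24, of Gpnmb and Ms4a7 in 20, and of Pf4 and Gpnmb in 3. The median member had 4115 UMIs (hashtag 3) or 3903 UMIs (hashtag 4). Mitochondrial genes took a median of 1.86% and 2.02% of their UMIs. No doublet caller was run. Of the 82 members, 11 held RNA of another cell type in amounts set after seeing the data: 8 had Ttr, the main transcript of choroid plexus epithelium, above 300 per 10000 UMIs, and 3 had the neutrophil genes S100a8 and S100a9 together above 100 per 10000.

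For comparison, 2 other classes were taken from the same cluster. Microglia by marker count had at least 3 of the 7 microglia genes, and monocytes by marker count had at least 2 of 8 genes of marrow-derived monocytes (Ly6c2, Ccr2, Ms4a4c, Plac8, Chil3, Vcan, F10 and Hp). Both had at most 1 of Pf4, Gpnmb and Ms4a7 and at most 1 T cell gene, and the monocytes at most 2 microglia genes. The hashtag 3 brain gave 21 microglia and 49 monocytes, and the hashtag 4 brain 31 and 39. Their median depths were 4190 and 3288 UMIs in hashtag 3, and 3736 and 3486 in hashtag 4. A level is given as summed UMIs of a gene per 10000 summed UMIs of the class in a brain. Its interval is an exact Poisson 95% interval for counting error, and a log2 difference adds 0.1 to both levels.

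The genes of the rule describe how the members were found. The level of Pf4 was 12.4 per 10000 UMIs in hashtag 3 (10.5 to 14.6) and 7.03 in hashtag 4 (5.96 to 8.22). Gpnmb was at 5.61 (4.35 to 7.12) and 11.7 (10.3 to 13.2), and Ms4a7 at 6.78 (5.38 to 8.43) and 11.3 (9.93 to 12.8). Pf4 was thus the gene that was higher in the hashtag 3 brain, and Gpnmb and Ms4a7 were higher in hashtag 4. A single cell held 34 of the 67 Gpnmb UMIs of the hashtag 3 members (50.7%), and another held 39 of their 148 Pf4 UMIs (26.4%). In hashtag 4 the highest cell held 10.1% of the 258 Gpnmb UMIs. With only the hashtag 3 members that took 80% or more of their hashtag counts from 1 hashtag, Gpnmb was at 3.26. Ms4a7 was the most evenly seen of the 3, in 96.6% and 98.0% of members (86.2% and 88.2% after thinning each cell to 2495 UMIs). Choroid plexus epithelial cells (deposited cluster 1, median depth 8795 and 7848 UMIs in these brains), which should lack these genes, had an Ms4a7 UMI in 8.29% and 4.95% of cells, and in 2.76% and 1.49% after thinning.

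Cells just inside and just outside the cut points are described by Spp1. In hashtag 4, the 21 cells with all 3 genes had a Spp1 level of 71.9 per 10000 and the 30 with 2 genes 18.4. The 27 cells just outside, with 1 of the 3 genes, were at 7.51. In hashtag 3 the order was another: the 13 cells with all 3 genes were at 5.65, the 16 with 2 genes at 4.07, and the 31 just outside with 1 gene at 14.3. The limit on microglia genes left out cells with high Spp1. The 13 hashtag 4 cells left out because they had 3 of the 7 microglia genes had a Spp1 level of 106 and an Apoe level of 318. The 17 with 4 or more were at 109 and 263. Both groups were above the level of all 51 members, 42.5 for Spp1. The highest of the summed Spp1 levels given here for that brain were thus in groups outside the rule. Single cells of these groups were not compared with single members. In hashtag 3, the 6 cells with 3 microglia genes had a Spp1 level of 12.1 and the 8 with 4 or more 7.37.

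The label of lipid-associated macrophages was borne out only in part. In hashtag 4, Spp1 and Apoe lay above both comparison classes, but Trem2 was not above microglia. In hashtag 3, Apoe lay above both classes and Spp1 did not. Spp1 was at 4.77 per 10000 in hashtag 3 members (3.61 to 6.18; 57 UMIs) and 42.5 in hashtag 4 members (39.8 to 45.3; 938 UMIs). Over single cells, Spp1 ranged from 0 through a median of 2.43 to 23.7 per 10000 in hashtag 3, and from 0 through 11.1 to 286 in hashtag 4. The ranges overlapped, and the cells above 23.7 were all in hashtag 4. Within the hashtag 3 brain, Spp1 was not above the comparison classes: microglia were at 5.79 and monocytes at 9.65, giving log2 differences of -0.27 and -1.002. Within the hashtag 4 brain, microglia were at 12.7 and monocytes at 2.73, giving 1.74 and 3.91. Both classes could have at most 1 of Pf4, Gpnmb and Ms4a7. The 13 and 17 hashtag 4 cells described above (Spp1 at 106 and 109) had microglia genes but at least 2 of these 3 genes, so they are in neither class. The hashtag 4 differences of Spp1, Apoe and Ctsd from microglia thus depend on how microglia were chosen. A Spp1 UMI was seen in 51.7% and 78.4% of members (48.3% and 74.5% after thinning), and in 21.0% and 20.8% of choroid cells (9.39% and 6.44%).

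Apoe was above both classes in both brains, by less in hashtag 3. Its level was 147 per 10000 in hashtag 3 members (141 to 155) and 249 in hashtag 4 members (242 to 256). The single cells ran from 31.7 through a median of 128 to 404 in hashtag 3 and from 18.0 through 170 to 1063 in hashtag 4. The log2 differences from microglia were 0.74 and 2.05, and those from monocytes 0.51 and 2.55. Choroid cells, which make Apoe themselves, stood at 35.03 and 27.6 per 10000. Without the droplets high in Ttr or neutrophil genes, the Apoe level of members was 161 and 272, and the Spp1 level 4.96 and 50.3.

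**Figure D1:**
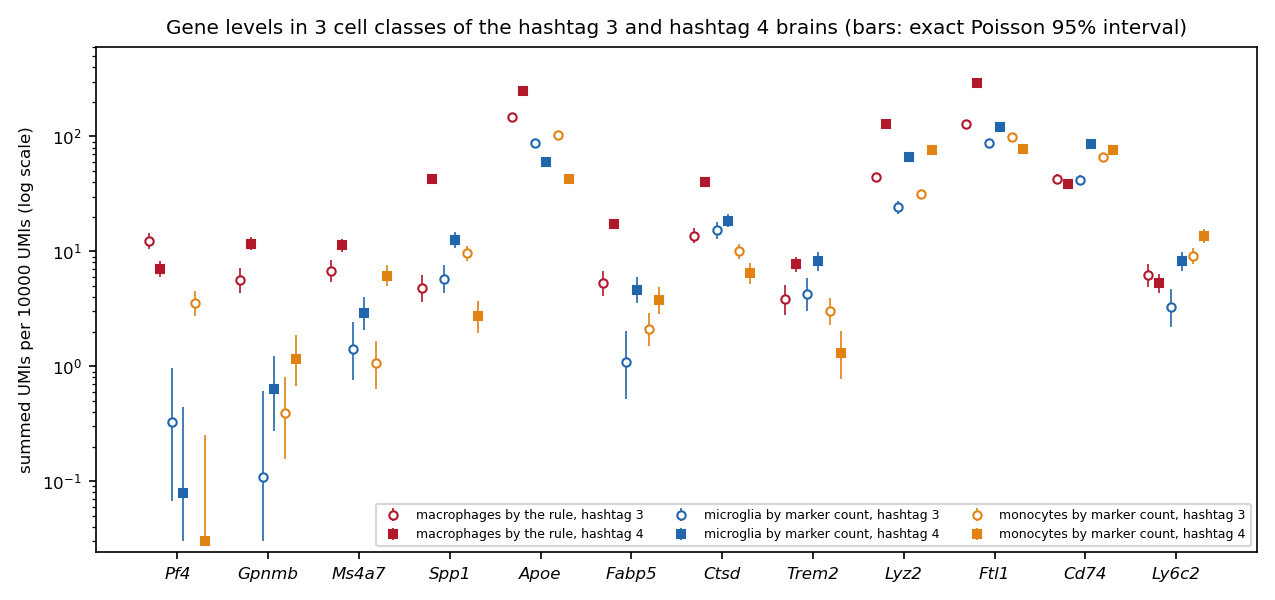
Summed UMIs per 10000 UMIs (log scale) of 12 genes in rule-defined macrophages (red), microglia by marker count (blue) and monocytes by marker count (orange), with open circles for hashtag 3, filled squares for hashtag 4 and exact Poisson 95% intervals for counting error. A value of 0 (Pf4 in hashtag 4 monocytes) is drawn at the lower edge. Spp1 of the macrophages lay at 4.77 in hashtag 3, among the other classes, and at 42.5 in hashtag 4, above them.

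Fabp5 was the gene of this program outside the rule that was more than 2-fold above both comparison classes in both brains. Its level was 5.27 per 10000 (4.05 to 6.75; 63 UMIs) in hashtag 3 members and 17.2 (15.5 to 19.1; 380 UMIs) in hashtag 4 members. Microglia were at 1.09 and 4.64, and monocytes at 2.12 and 3.76. The log2 differences were 2.17 and 1.87 from microglia, and 1.27 and 2.17 from monocytes, so Fabp5 was more than 2-fold higher in each of the 4 comparisons. With only cells at 80% or more of 1 hashtag, the hashtag 3 difference from monocytes was 0.97, just under 2-fold. Choroid cells had 0.0503 and 0.127. The hashtag 4 cells left out for 3 microglia genes had Fabp5 at 12.8, and those with 4 or more at 9.59. In hashtag 3 these groups were at 0.71 and 3.38. Neither group is in the microglia class, so the Fabp5 differences from microglia also depend on how microglia were chosen.

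Ctsd, the gene of the lysosomal protease cathepsin D, followed Spp1. It was at 13.7 per 10000 in hashtag 3 members and 40.4 in hashtag 4 members. In hashtag 3 it lay close to microglia (-0.16 on the log2 scale, and 0.01 with all 3 genes of the rule required), and in hashtag 4 it lay 1.12 above them and 2.64 above monocytes. The hashtag 4 cells left out for 3 microglia genes had Ctsd at 43.6, and those with 4 or more at 44.0. Neither group is in the microglia class. Trem2 did not separate the members from microglia in either brain, with levels of 3.85 and 7.75 against 4.26 and 8.18. Monocytes were at 3.01 and 1.298, so Trem2 lay 0.34 and 2.49 above them on the log2 scale. Lpl, the gene of lipoprotein lipase, was low throughout, with 21 UMIs over all members.

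Of the 14 lipid-associated macrophage genes, 3 were at least 2-fold higher than in microglia in both brains (Gpnmb, which the rule used, Fabp5 and Fabp4, the last with 12 UMIs) and none was 2-fold lower in both. Over all 5580 genes with at least 10 UMIs in the 2 classes together, 83 were higher (1.49%) and 126 lower (2.26%) in both brains, and nothing is read from these counts because the classes were chosen on RNA. The median log2 difference of the 14 genes was 0.35 in hashtag 3 and 1.17 in hashtag 4, beside 0.02 and -0.12 over all genes. Against monocytes, 2 of the 14 were higher in both brains (Gpnmb and Fabp5), with medians of 0.36 and 1.81 beside -0.000147 and -0.03 over all genes. In that comparison 50 of 6051 genes were higher (0.826%) and 73 lower (1.21%) in both brains. For each list below, counts past 2-fold in both brains stand beside these same shares over all genes. Taking hashtag 4 by itself, 9 of the 14 were at least 2-fold higher than in monocytes (Gpnmb, Fabp5, Spp1, Apoe, Trem2, Ctsd, Cd63, Cd36 and Lipa), beside 503 of the 6051 genes. In hashtag 3 by itself, 3 of the 14 were at least 2-fold higher and 1 lower (Spp1), beside 447 higher and 675 lower of the 6051 genes. Spp1 was just at the cut there (-1.002). Its difference was under 2-fold with only cells at 80% or more of 1 hashtag (-0.94) and with all 3 genes of the rule required (-0.76). The same held for means over cells (-0.88) and a pseudocount of 1 (-0.88). Gpnmb is a rule gene, and the monocytes were limited to at most 1 of the 3 rule genes.

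**Figure D2:**
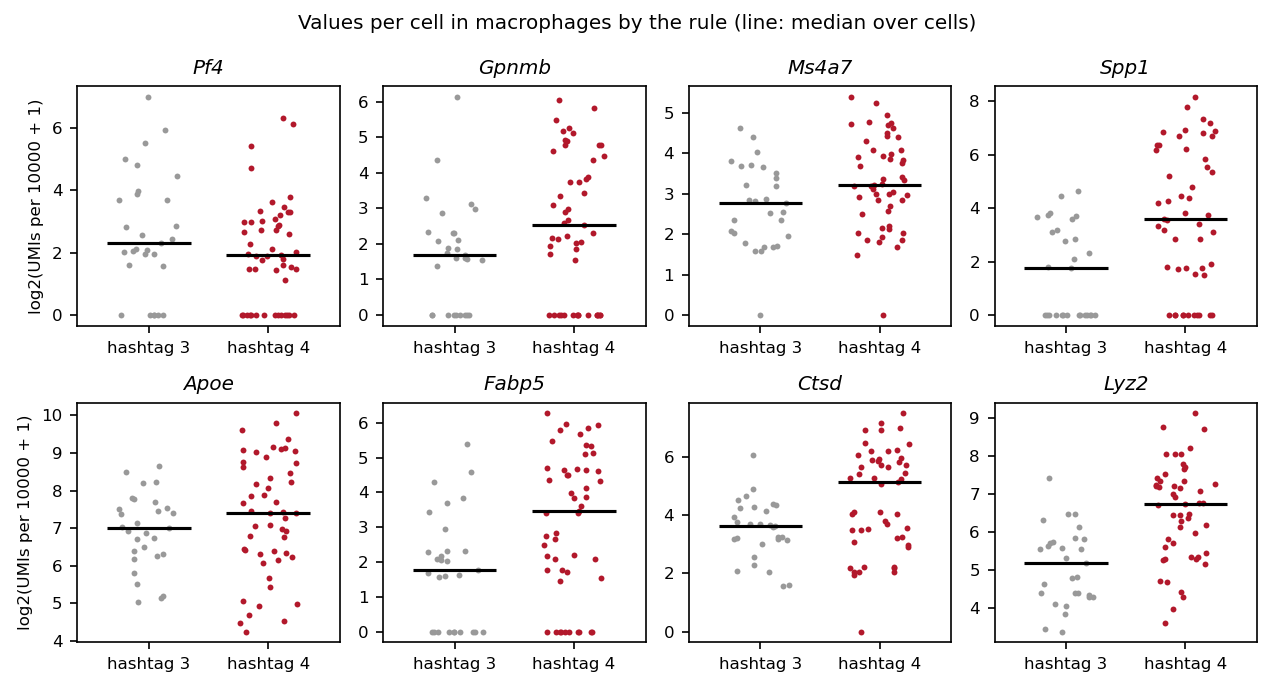
Values of single rule-defined macrophages, as log2 of UMIs per 10000 plus 1, for 8 genes in the hashtag 3 (29 cells, grey) and hashtag 4 (51 cells, red) brains, with a line at the median over cells and a separate vertical scale in each panel. The hashtag 4 cells spread from 0 to the highest Spp1 value of 286 per 10000, while hashtag 3 cells reached 23.7.

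Members with and without a Gpnmb UMI are set side by side as a description that supports nothing, since Gpnmb belongs to the rule and a member without it had to carry both Pf4 and Ms4a7. The 36 hashtag 4 members with a Gpnmb UMI had a Spp1 level of 56.7 per 10000, and the 15 without one had 6.85. Apoe was at 304 and 111, Fabp5 at 22.6 and 3.66, Ctsd at 52.3 and 10.5, and Lyz2, the lysozyme gene of myeloid cells, at 157 and 50.6. All 5 genes had lower levels in the cells without a Gpnmb UMI. The median depths were close, at 3992 and 3723 UMIs. In hashtag 3, the 20 members with a Gpnmb UMI had Spp1 at 5.36 and Apoe at 144, and the 9 without had 3.27 and 157. There the class II genes differed instead: Cd74, the invariant chain of class II molecules, was at 27.2 with Gpnmb and 82.4 without. The members without Gpnmb in hashtag 3 were shallower, with a median of 3477 UMIs against 4517.

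Correlations over single cells are given as a description, with no test. The genes were those of the lipid-associated list outside the rule with at least 100 UMIs in members: Trem2, Cd9, Spp1, Apoe, Fabp5, Lgals3, Cd63, Ctsd and Plin2. Across the 51 hashtag 4 members, their 36 pairs had a median Spearman correlation of 0.382, from 0.114 to 0.789, and 13 pairs were above 0.5. Across the 29 hashtag 3 members the median was 0.0931, from -0.221 to 0.497, with no pair above 0.5. Counts of these genes were lower there. Spp1 had 57 UMIs in 15 of the 29 cells, and 938 in 40 of the 51 hashtag 4 cells. Low counts limit how high such a correlation can be, and their part in the difference of the brains was not tested. Microglia and monocytes of hashtag 4 had medians of 0.0845 and 0.119. The cells of a brain share a library and differ in depth. After thinning to 2495 UMIs, which evens the depth of cells and not the level of a gene, the medians of the members were 0.389 in hashtag 4 and 0.122 in hashtag 3. An earlier choice of 7 genes, picked after their values were seen (Spp1, Apoe, Fabp5, Ctsd, Trem2, Lyz2 and Cd63), gave a higher median in hashtag 4, 0.647.

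The strongest pairs of these genes in hashtag 4 were Apoe with Ctsd (0.79), Apoe with Trem2 (0.78) and Spp1 with Ctsd (0.73). Gpnmb correlated with Ctsd at 0.73 and with Spp1 at 0.67. Genes outside the lipid-associated list went both ways. Trem2 with Ly6c2, a surface gene of inflammatory monocytes, was at -0.50, and Ctsd with Cd74 at -0.48, while Cd9 with Cd74 was at -0.05. Lyz2 was at 0.76 with Apoe and 0.70 with Spp1, and Ftl1 was at 0.60 with Fabp5. Pf4 correlated with Spp1 at 0.13 and with Ctsd at 0.10. Ms4a7, the other rule gene, was at -0.32 with Spp1, -0.35 with Fabp5, -0.29 with Ctsd and -0.32 with Gpnmb. A member without Gpnmb had to carry both Pf4 and Ms4a7. Correlations with these rule genes therefore depend on the rule, and its part in them was not tested.

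**Figure D3:**
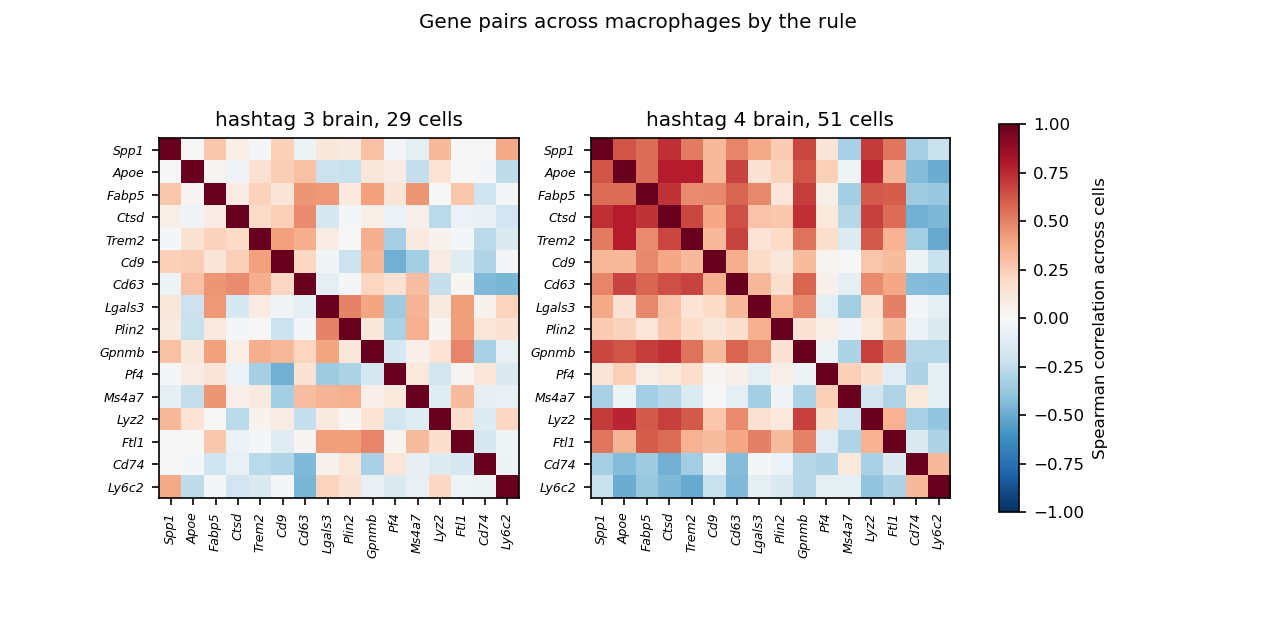
Spearman correlations across single rule-defined macrophages for 16 genes, on a scale from -1 (blue) to 1 (red), in the hashtag 3 brain (29 cells) and the hashtag 4 brain (51 cells). The block of Spp1, Apoe, Fabp5, Ctsd, Trem2, Cd63 and Gpnmb is red in hashtag 4, with Apoe and Ctsd at 0.79. It is mostly paler in hashtag 3, where Ctsd and Cd63 are at 0.47. The block was named after its values were seen and leaves out Cd9, Lgals3 and Plin2 (Cd9 and Plin2 at 0.11 in hashtag 4).

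The start regions of a gene that varied with this block in hashtag 4 (Ctsd), of the rule gene that varied with it (Gpnmb) and of a rule gene that did not (Pf4) are shown, 250 bases before the start in the direction of the gene, from RefSeq on GRCm38.p6. Capitals mark CACGTG, an E-box that TFEB and MITF family factors can bind, and TGACNNNGC, the core of the antioxidant response element of Nrf2, on either strand, and no marked stretch overlaps another.
Gpnmb, chr6:49036268-49036517, plus strand: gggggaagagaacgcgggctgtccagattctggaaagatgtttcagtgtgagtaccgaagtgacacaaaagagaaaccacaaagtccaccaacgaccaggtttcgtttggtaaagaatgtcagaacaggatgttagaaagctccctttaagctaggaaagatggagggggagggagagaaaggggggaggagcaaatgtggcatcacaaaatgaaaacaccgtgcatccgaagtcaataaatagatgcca
Ctsd, chr7:142387828-142388077, minus strand: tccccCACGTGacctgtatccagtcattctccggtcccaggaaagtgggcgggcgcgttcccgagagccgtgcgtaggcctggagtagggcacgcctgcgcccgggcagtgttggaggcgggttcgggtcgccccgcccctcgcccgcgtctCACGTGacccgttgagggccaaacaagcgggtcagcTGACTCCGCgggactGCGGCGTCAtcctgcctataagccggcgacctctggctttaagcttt
Pf4, chr5:90772185-90772434, plus strand: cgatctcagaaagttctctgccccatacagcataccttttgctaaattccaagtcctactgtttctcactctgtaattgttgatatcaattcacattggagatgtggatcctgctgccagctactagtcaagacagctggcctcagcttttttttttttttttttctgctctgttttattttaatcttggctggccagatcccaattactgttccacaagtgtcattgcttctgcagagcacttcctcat
Ctsd held CACGTG 2 times and TGACNNNGC 2 times in this window, and Gpnmb and Pf4 held neither. Of 32851 RefSeq start regions of this length, 6.02% held CACGTG and 10.2% TGACNNNGC. A match of letters is a description and not a site. Of 10 genes searched (Gpnmb, Pf4, Ms4a7, Spp1, Apoe, Fabp5, Ctsd, Gclm, Slc7a11 and Gdf15), 9 were matched with 14 starts, and the starts with a motif were those of Ctsd, 1 of Gdf15 (CACGTG) and Gclm (TGACNNNGC).

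Among iron and haem genes, the ferritin genes had the highest levels. Ftl1, the ferritin light chain that stores iron, was at 128 per 10000 in hashtag 3 members (122 to 135) and 289 in hashtag 4 members (282 to 296). It lay 0.56 and 1.27 above microglia and 0.37 and 1.91 above monocytes on the log2 scale. Fth1, the ferritin heavy chain, was 0.80 and 1.33 above microglia and 0.75 and 1.38 above monocytes. Hmox1, the haem-degrading oxygenase, was at 4.44 and 6.89 in members, 2.29 and 2.60 in microglia, and 5.52 and 1.57 in monocytes. Of the 13 tested genes of this list, 1 was 2-fold higher than in microglia in both brains (Gclm, a subunit of the enzyme that starts glutathione synthesis, with 4 and 24 UMIs in members, and differences of 0.42 and 0.67 with a pseudocount of 1) and none was lower. The list's median difference from microglia was 0.56 in hashtag 3 and 0.98 in hashtag 4. From monocytes none of 12 was 2-fold higher or lower in both brains, with medians of 0.19 and 1.57. Red cell genes summed to 4.18 and 4.40 per 10000 in members and to 56.9 in hashtag 4 monocytes.

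Lysosome genes had a median difference from microglia of 0.05 in hashtag 3 and 0.55 in hashtag 4. Their summed levels were 272 and 334 per 10000 in members and 289 and 332 in microglia, and Cst3, the gene of the protease inhibitor cystatin C, was lower in members by a log2 difference of -0.89 and -2.28. Besides Gpnmb, 1 of the 29 tested genes was 2-fold higher than in microglia in both brains: Cd68, a lysosomal membrane protein of phagocytes, at 5.27 and 9.66 per 10000 against 2.29 and 4.41. Its log2 difference was 0.80 in hashtag 3 without the mixed droplets, and 0.94 in hashtag 4 with only cells at 80% or more of 1 hashtag. Ctsb, the gene of cathepsin B, was at 23.9 and 40.2 against 15.7 and 17.3 in microglia. Among 36 genes of lipid uptake, storage and efflux, 28 were tested against microglia. In both brains 3 of them were 2-fold higher, Fabp4, Fabp5 and Pla2g7, a secreted phospholipase that hydrolyses oxidised lipids, at 4.94 and 3.26 against 1.53 and 1.42. The hashtag 4 difference of Pla2g7 was 0.82 with a pseudocount of 1. None of 21 tested genes of phagocytic and scavenger receptors and none of 12 complement genes was past 2-fold in both brains in either comparison. C1qa, a chain of the complement trigger C1q, was at 21.0 and 17.9 per 10000 in members.

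Other listed genes that were 2-fold higher than in microglia in both brains were few. Cxcl2, a neutrophil-attracting chemokine, was at 24.2 and 9.88 per 10000 in members and 11.3 and 2.12 in microglia, and it differed from monocytes by 0.23 and 0.92 on the log2 scale. Cxcr4, the receptor of Cxcl12, was at 1.59 and 1.45 against 0.55 and 0.63. Igf1, Il18bp (a decoy of interleukin 18), Adam8, Vegfa and Top2a were also past 2-fold, with between 11 and 40 UMIs each over all members. With a pseudocount of 1 in place of 0.1, Cxcr4 (0.74 and 0.59), Igf1 (0.22 and 0.61) and Adam8 (0.85 and 0.66) were under 2-fold. Cxcl10, the chemokine of the study's title, was at 1.26 and 1.31 in members (44 UMIs in all), 1.75 and 3.70 in microglia, and 1.40 and 6.63 in monocytes. In hashtag 3 its difference from microglia was -0.45, and 1.07 without the mixed droplets, so its direction there depended on which droplets were kept.

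**Figure D4:**
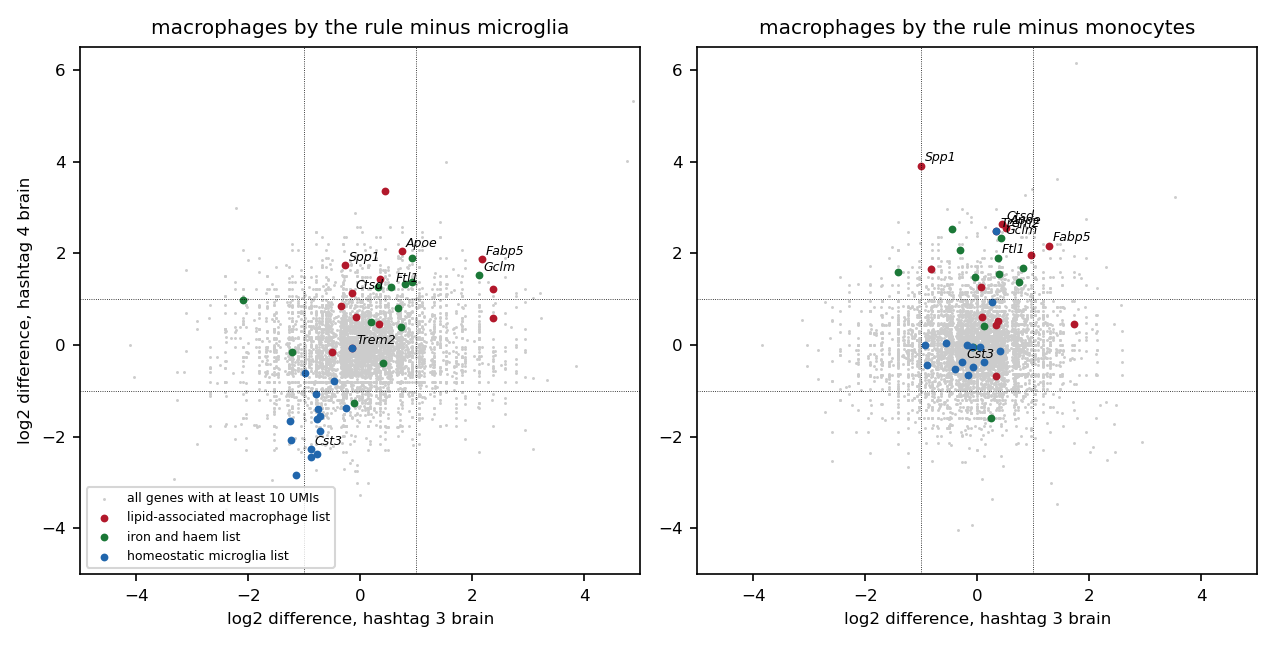
Log2 differences of rule-defined macrophages from microglia (left) and from monocytes (right), hashtag 3 on the horizontal and hashtag 4 on the vertical axis, 1 point per gene with at least 10 UMIs, and dotted lines at 2-fold. Lipid-associated macrophage genes outside the rule are red, iron and haem genes green and homeostatic microglia genes blue (Trem2 is on 2 lists and drawn blue). Fabp5 lies past 2-fold in both brains on both sides, and Spp1 past it in hashtag 4 and at -0.27 and -1.002 in hashtag 3.

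Genes of resting microglia outside the rule were compared with microglia by marker count. Members could have at most 2 of the 7 microglia genes and these microglia had at least 3, so this list is not independent of how the classes were chosen. Of 15 tested, 3 were 2-fold lower in both brains, beside 126 of 5580 over all genes (2.26%). They were Cd81, a tetraspanin, at 4.77 and 1.99 per 10000 against 11.4 and 8.74, Sparc, a matrix protein, and Mef2c, a transcription factor. In hashtag 3, the difference of Cd81 was -0.95 with all 3 genes of the rule required, and that of Sparc was -0.88 with a pseudocount of 1. The median difference of the list was -0.78 in hashtag 3 and -1.61 in hashtag 4. Against monocytes it was -0.13 and -0.09. Irf8, a transcription factor of myeloid development, was at 0.92 and 1.31 against 2.62 and 2.83 in microglia, past 2-fold in both brains, and its hashtag 4 difference was -0.93 after centring on the median gene. Ccl4 and Ccl12, chemokine genes, Il1a, the gene of interleukin 1 alpha, and Il10ra, a subunit of the interleukin 10 receptor, were also at least 2-fold lower in members than in microglia in both brains. For Ccl4 the differences were -1.16 and -2.04, and -0.86 and -0.85 with only cells at 80% or more of 1 hashtag. Of the 19 immediate early genes tested, none was past 2-fold in both brains, with medians of -0.60 and -1.20 from microglia and -0.06 and -0.15 from monocytes.

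Class II presentation genes of members had summed levels of 86.1 per 10000 in hashtag 3 and 74.0 in hashtag 4, and those of microglia 84.0 and 168. Class I genes of members summed to 97.8 and 102. In hashtag 4, Cd74 was at 38.7 per 10000 in members, 86.6 in microglia and 75.7 in monocytes. In hashtag 3 it was at 42.8, 42.2 and 66.5. The class II list had a median difference from microglia of -0.05 in hashtag 3 and -1.08 in hashtag 4. Of the 7 class II genes tested against monocytes, 1 was 2-fold lower in both brains (H2-DMb2, with 2 UMIs in members), with medians of -0.64 and -0.97. Interferon response genes summed to 64.4 and 58.9 in members, 48.3 and 77.4 in microglia and 71.8 and 111 in monocytes. Their median difference was 0.31 and -0.41 from microglia and -0.14 and -0.99 from monocytes. None of the 22 and 23 tested was past 2-fold in both brains.

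Marker genes of other cell types were mostly low in the members, and their part in the results was not tested unless stated. Of the 12 border macrophage markers, Pf4 and Ms4a7 belong to the rule. Among the rest, Mrc1 was at 0.92 and 0.45 per 10000, Lyve1 had 2 UMIs, Cd163 and Folr2 4 each, and Cd209f was at 0. F13a1, Cbr2, Stab1, Siglec1 and Clec10a are not given singly. All 12 together, rule genes included, summed to 23.3 and 20.5 per 10000. Of the 5 tested against each class, 3 were at least 2-fold higher than in microglia in hashtag 3, and 3 than in monocytes. These counts include rule genes, and at least 1 gene outside the rule was in each. In hashtag 4 the counts were 2 and 2. In both brains, Pf4 and Ms4a7 were higher than in microglia, and of these 5 only Pf4 than in monocytes. Over all genes, 670 of 5580 and 447 of 6051 were higher in hashtag 3 alone, and 391 and 503 in hashtag 4 alone. Of 7 platelet genes, 6 were at 0, and Ppbp had 5 UMIs. The 8 monocyte genes summed to 38.1 and 24.5 per 10000 in members, 24.6 and 42.1 in microglia, and 46.5 and 64.8 in monocytes. Plac8 and Ly6c2 were at 11.5 and 6.19 in hashtag 3 members and 11.1 and 5.26 in hashtag 4 members, against 0.380 and 0.268 in hashtag 3 choroid cells and 0.391 and 0.185 in hashtag 4 choroid cells.

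The 6 neutrophil genes summed to 67.5 per 10000 in hashtag 3 members and 21.4 in hashtag 4 members, beside 34.2 and 40.8 in microglia and 13.1 and 117 in monocytes. A single cell held 267 of the 438 S100a8 UMIs in hashtag 3 and another 185 of 270 in hashtag 4. The 6 choroid plexus genes summed to 148 and 412 per 10000, with a median over cells of 127 and 135. The highest hashtag 4 cell alone held 2300 of 8722 Ttr UMIs. The choroid sum was thus higher in hashtag 4 members, as were Spp1 and Apoe, whose levels without the mixed droplets are given above with the same order of the brains. Tumor line genes (Rhox5, Krt8, Krt18 and Epcam) summed to 1.09 and 1.41, B cell genes to 0.335 and 0.997, and T cell genes, which the rule limited, to 0.418 and 0.499.

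By size of the smaller of the 2 within-brain differences, the genes highest against microglia outside the rule were Nxt2, Copg2, Fabp5, Snrnp25, Bms1, Sec61a1, Adam8, Stx18, Gdf15, Slc7a11, Gclm and Zfp91. Of these 12, 10 rested on at most 50 UMIs in both classes together, and 6 had at most 1 UMI in the microglia of each brain. Fabp5 had 512 UMIs, and Slc7a11, the cystine transporter that supplies glutathione synthesis, had 86, with 38 and 34 in members and 8 and 6 in microglia. Gdf15, a secreted stress cytokine, had 6 and 33 UMIs in members against 1 and 0 in microglia, and against monocytes (1 and 2 UMIs) it led that list. The lowest against microglia were Adamts1, Cxxc5, Grap, Siglece, Trim30d, Tpp2, St3gal6, Tjp1, Tbc1d4, Fam208b, Dennd4a and Rcan1, each with at most 24 UMIs. Adamts1, a matrix protease gene, had 1 and 0 UMIs in members and 8 and 14 in microglia.

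Against monocytes, Gdf15 was followed by Ctla2b, Slc7a7, Piezo1, Cops3, Gdf3, Nudt22, Tmem185b, Snx24, Bckdk, Mprip and Rab34. All 12 had at most 42 UMIs. The lowest were Ccr7, Tgfb2, Siglece, Nsg2, Adamts1, Ifi47, Tbc1d4, Cd274, Gm9733, Ace, Sgms2 and Gimap3. Ccr7, the receptor that guides dendritic cells to lymph nodes, had 0 UMIs in members of both brains against 9 and 7, and Cd274, which encodes PD-L1, had 1 and 7 against 11 and 17. Ifi47, an interferon-induced GTPase, had the most UMIs of this group, 3 and 12 in members against 18 and 28.

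Apart from mitochondrial and ribosomal protein genes, the genes with the highest levels in the members' droplets were Ttr, the choroid plexus transcript (301 per 10000 over all 82 cells), Malat1, Ftl1, Fth1, Apoe, Actb, Lyz2, Tmsb4x, B2m and Ctss. Lyz2 was at 44.4 per 10000 in hashtag 3 members and 127 in hashtag 4 members, above microglia by 0.87 and 0.93 and above monocytes by 0.50 and 0.74 on the log2 scale. Lyz2 was also higher in hashtag 4 than in hashtag 3 in microglia (66.5 and 24.3) and in monocytes (75.8 and 31.3). Spp1 was likewise higher in hashtag 4 in microglia (12.7 and 5.79) but lower there in monocytes (2.73 and 9.65).

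Surface proteins, read from the antibody tags, were measured apart from the rule. No member had fewer than 300 CD45 tag counts. The median CD45 tag count, the pan-leukocyte protein, was 7087 in hashtag 3 members (1420 to 18513) and 5951 in hashtag 4 members (1123 to 13027), against 38 and 42.5 in choroid cells. Microglia had 7570 and 7534, and monocytes 7092 and 9622. CD45 was lower than in microglia in both brains and lower than in monocytes in hashtag 4, while in hashtag 3 members and monocytes had nearly equal medians (a log2 difference of -0.00102). The mean log2 difference was -0.22 from microglia (each brain 0.12 from that mean) and -0.35 from monocytes (each 0.35 from it), with an exact two-sided sign-flip permutation p of 0.5 for each (n = 2 brains). With 2 brains, 0.5 is the smallest p that this test can give, and adjusted by the Benjamini-Hochberg method over 12 comparisons every p was 1.

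CD11b, the integrin of myeloid cells, had medians of 7985 and 5210 in members, 7037 and 5066 in microglia, and 6036 and 5778 in monocytes. It was higher than in microglia in both brains, by 0.11 on the mean log2 scale, and against monocytes the 2 brains differed in direction. CD86, a costimulatory protein, had medians of 175 and 208 in members, 205 and 410 in monocytes and 143 and 258 in microglia. Its difference from monocytes was -0.23 and -0.98 in the 2 brains (exact permutation p of 0.5, adjusted p of 1), and its difference from microglia had opposite signs. The median counts of CD3e (2 and 3), CD4 (11 and 17) and CD25 (11 and 13) were close to those of choroid cells (1 and 1, 9 and 10, 7 and 8). The single cells of all 3 classes overlapped widely for each tag.

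**Figure D5:**
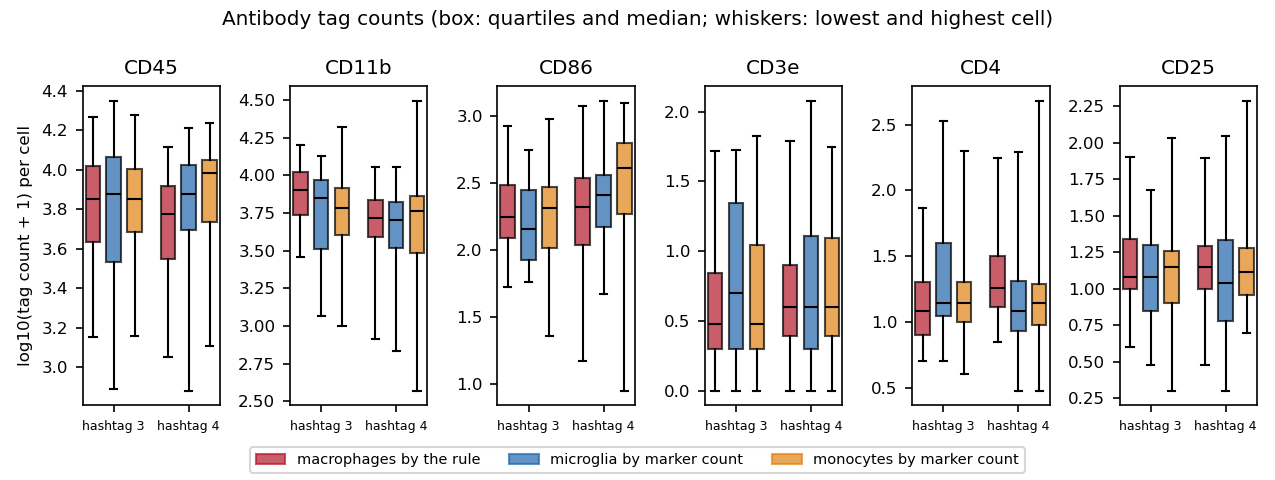
Antibody tag counts per cell, as log10 of the count plus 1, for 6 antibodies in rule-defined macrophages (red), microglia (blue) and monocytes (orange) of the hashtag 3 and hashtag 4 brains, with boxes for quartiles and median, whiskers from the lowest to the highest cell, and a separate vertical scale in each panel that does not start at 0. Every class had CD45 and CD11b medians of at least 5066, and CD86 medians were lowest in hashtag 3 microglia (143) and highest in hashtag 4 monocytes (410).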

How the data were processed

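Values came from 1 pool of 4 brains in 3 libraries (cDNA, antibody tags and hashtags). The deposited gene values are natural log values: per the values themselves, the log of 1 plus UMIs per 10000 UMIs of the cell. The deposited cell table holds counts of UMIs, hashtags and tags, a mitochondrial fraction per cell that the authors computed, and the authors' hashtag class and cluster. The series' design text names CITE-seq-Count 1.3.4 for the tags. Per the submitters' processing notes, Cell Ranger 2.1 and Seurat 2.3.4 were used, with mm10. The sources used here do not state how cells were filtered.

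Whole UMIs were recovered from log value and cell total: 99.8% of nonzero values were whole within 0.01, and cells summed to within 10 UMIs of the total, which ran from 2495 to 43038. Every cell was kept, and doublets were not called. Members and gene lists were chosen with earlier results of these data known. Levels are UMIs summed by class and brain, and differences were taken within the brains that had at least 10 cells of both classes. A gene counted as higher or lower where it passed 2-fold in each such brain, among genes with at least 10 UMIs in both classes together. The counting was tested on simulated counts with changes larger than 2-fold, in genes with more UMIs than this filter asks for. No 2-fold change and no change in a low gene was simulated. Tags were compared as log2 of the median count plus 1, with the brain as the pair, since both classes come from the same animal. Named are the genes of the rule, Spp1, Apoe, Cxcl10 and the tag genes, the 12 highest and 12 lowest genes per comparison, up to 6 leading members of each list with those past 2-fold in both brains, and the 10 highest genes. Of these, list members with no bearing on a result are left out, and Lpl, Lyve1, Cd163, Folr2, Cd209f and some others were named after their values were seen. Alternatives changed the rule, the cells kept, the pseudocount, the filter, the scale and the brains used. Python 3.11.15, numpy 2.4.6, scipy 1.17.1, pandas 2.3.3 and matplotlib 3.10.9 were used.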

Additional observations from a re-analysis of the deposited data

How the results depend on the processing

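With all 3 of Pf4, Gpnmb and Ms4a7 required, the share of cluster 3 was 0% in hashtag 1, 8.39% in hashtag 3 and 10.8% in hashtag 4, and with 80% of hashtag counts from 1 hashtag it was 0% in hashtags 1 and 2. The gene counts depended strongly on low genes. With a pseudocount of 1, 5 genes were higher and 9 lower than in microglia, and 3 higher and 0 lower than in monocytes. With a filter at 1 UMI these were 133, 232, 78 and 130, and at 30 UMIs 22, 36, 9 and 10. With all 3 genes required, 202 were lower than in microglia and 178 than in monocytes. With 1 brain left out, the other alone gave 196 to 236 higher and 181 to 345 lower than in microglia, and 169 to 281 and 265 to 287 against monocytes. Without the mixed droplets, an alternative added after seeing the data, 49 of the 83 genes higher than in microglia were shared. Centring on the median gene, also added then, gave 93 higher and 92 lower than in microglia. Among tags, signs reversed for comparisons whose reported difference lay between -0.06 and 0.18 on the log2 scale. With 80% from 1 hashtag, CD11b against microglia was -8.82e-05 and CD4 against monocytes -0.00499. As a share of tag counts, CD25 against monocytes was 0.00897. With means over cells, CD86 against microglia was 0.0759, CD4 against microglia -1.05 and against monocytes -0.58. Without the mixed droplets, CD86 against microglia was 0.0595. With 1 brain left out, CD86 against microglia ran from -0.31 to 0.29, CD4 from -0.22 to 0.58 against microglia and from -0.22 to 0.36 against monocytes, and against monocytes CD11b ran from -0.15 to 0.40 and CD25 from -0.22 to 0.11. Without the replicate block (brains unpaired), the differences were as paired, -0.22 for CD45 against microglia, and no call changed.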
